A study of Homo sapiens with 6 samples.

Results

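The genes described here are 10 writers and readers of N6-methyladenosine (m6A), the methyl mark placed on adenosines inside mRNA. They were METTL3, METTL14, WTAP and ZC3H13 of the writer complex, the readers YTHDF1, YTHDF2 and YTHDF3, and the readers IGF2BP1, IGF2BP2 and IGF2BP3. They were chosen by name, with earlier results of these data known. By Ensembl identifier, all 10 were found among the 20169 gene rows of the deposited table. All 10 passed the low-count filter. The study belongs to work on how 3'UTRs set expression, and its design compares monoclonal HEK293T lines that carry a landing pad, which is an inserted site where a reporter can later be placed. In 3 libraries the pad held the PGK promoter and in 3 it held the CAG promoter, with polyA RNA sequenced from cells grown in the same medium. HEK293T cells derive from human embryonic kidney and express the large T antigen of a virus, and both groups share that background. Each promoter stands for what the labels show as 1 line, so promoter and clone cannot be told apart. Whether the 3 libraries of a line had separate cultures is not stated in the labels, and p-values therefore measure the spread among these samples, part of which may be technical.

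The mark is placed in the nucleus, within the short sequence that METTL3 and METTL14 recognise together. Much of it lies around stop codons and in 3'UTRs. Proteins with a YTH domain bind the methylated base itself, and in the cytoplasm the YTHDF proteins are known for speeding the decay of marked mRNAs and, in some settings, for their translation. The IGF2BP proteins, fetal RNA-binding proteins that stay on in many tumour and embryonic lines, are known for the opposite role of keeping bound mRNAs stable.

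Levels are given as CPM, counts scaled to a common library size. Total counts ran from 21896246 to 23442542 per library. Pearson correlations of log2 CPM across genes were at least 0.995 within a line and 0.958 to 0.960 between lines. Of 8 markers of the HEK293 lineage 7 matched a row and none was at 0, with a summed level of 694 to 711 CPM in the PGK libraries and 887 to 936 CPM in the CAG libraries. Most of this was the intermediate filament gene VIM, while the renal factor PAX2 was low, at 1.55 CPM in PGK and 1.27 in CAG. Of 8 markers of other cell types 7 matched, with a summed level of 18.6 to 19.9 CPM in PGK and 23.2 to 23.5 CPM in CAG. The T cell gene CD3E and the liver gene ALB had 0 counts. The collagen gene COL1A1 made up most of the sum, and the epithelial gene EPCAM had 2 counts over the PGK libraries and 78 over the CAG libraries. The part of these markers in the results below was not tested.

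Some of the m6A genes were higher in one line and some in the other, and the differences were under 2-fold for all 10. ZC3H13 was 1.79 times as high in the CAG line (95% interval 1.67 to 1.91), METTL14 1.34 times (1.21 to 1.48), YTHDF2 1.24 times (1.15 to 1.33) and WTAP 1.13 times (1.06 to 1.21). In the other direction, IGF2BP2 was 1.64 times as high in the PGK line, IGF2BP3 1.18 times and METTL3 1.09 times. YTHDF1, YTHDF3 and IGF2BP1 did not pass the test. Calls were made at an adjusted p under 0.05 in the quasi-likelihood test of edgeR, adjusted by Benjamini-Hochberg over all 13103 genes tested, and by this rule 4 of the 10 rose and 3 fell. Of all tested genes 62.0% were called, 31.6% higher and 30.4% lower, so 7 of 10 is near the background. The median log2 fold change was -0.00014 over the 10 genes and -0.0021 over all tested genes. The 3 CAG libraries all lay on one side of the 3 PGK libraries for the same 7 genes, which was the case for 65.5% of tested genes.

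**Figure D1:**
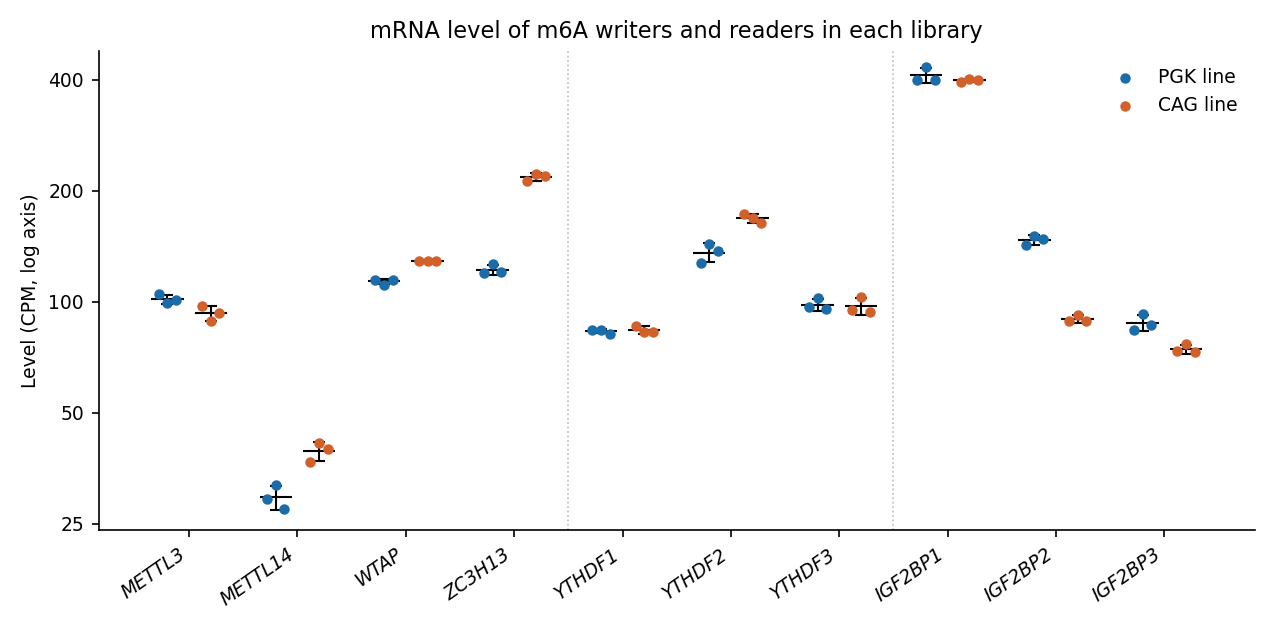
Level of each gene in every library, in CPM (log axis), with writers, YTHDF readers and IGF2BP readers set apart by dotted lines. Points are libraries, black bars the mean and SD over 3 libraries. ZC3H13 and YTHDF2 sit higher in the CAG line, IGF2BP2 lower, and IGF2BP1 near 400 CPM in both lines.

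Among the writers, ZC3H13 (ENSG00000123200, chromosome 13), a zinc finger protein that helps hold the complex in the nucleus, differed most. It stood at 119, 127 and 120.3 CPM in the PGK libraries and at 212, 223 and 219 CPM in the CAG libraries. All 3 CAG libraries lay far above the highest PGK library, and the spread within a line was small, at 122 ± 3.87 CPM in PGK and 218 ± 5.35 in CAG (SD, n = 3). The log2 fold change was 0.84 (SE 0.05), with an adjusted p of 3.71e-11 in edgeR's quasi-likelihood test. Of all tested genes 11.8% changed by more on the log2 scale in either direction. ZC3H13 kept its call when tested against a fold of 1.5, with an adjusted p of 6.38e-05 in edgeR, a test that 11.5% of tested genes passed.

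METTL14 (ENSG00000145388, chromosome 4), the partner that binds RNA beside the catalytic subunit, had the lowest level of the 10 genes. Its libraries read 29.2, 31.8 and 27.4 CPM in PGK and 36.8, 41.4 and 39.8 CPM in CAG. The lines did not overlap, and the gap between them was wider than the spread within either. The log2 fold change was 0.42 (SE 0.07), with an adjusted p of 3.46e-05 in edgeR's test.

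WTAP (ENSG00000146457, chromosome 6), the adaptor that brings the catalytic pair to nuclear speckles, rose by a small amount. It was measured at 115, 111 and 115 CPM in PGK and at 129 CPM in each CAG library. The SD over the CAG libraries was 0.165 CPM. The log2 fold change was 0.18 (SE 0.05), with an adjusted p of 0.00223 in edgeR's test. WTAP shares 4.64% of its exon bases with SOD2 on the other strand, a gene at 170.1 CPM in PGK and 166 in CAG. No source used here states whether counting kept to one strand, so reads over shared bases cannot be told apart.

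METTL3 (ENSG00000165819, chromosome 14), the catalytic subunit, went the other way. Its values were 105, 99.1 and 101 CPM in PGK and 97.6, 88.8 and 93.3 CPM in CAG. The highest CAG library lay just under the lowest PGK library. The log2 fold change was -0.12 (SE 0.05), with an adjusted p of 0.0443 in edgeR's test. The call was lost without PGK replicate 1 (adjusted p 0.102), PGK replicate 3 (0.0764), CAG replicate 2 (0.209) or CAG replicate 3 (0.106) in edgeR, and with DESeq2 (0.0595), a stricter low-count filter (0.0535) or scaling by library size only (0.134). METTL3 shares 6.58% of its exon bases with TOX4 on the other strand. TOX4 itself differed by -0.13 (SE 0.05) on the log2 scale, almost the same amount, and how the shared reads divide was not tested.

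**Figure D2:**
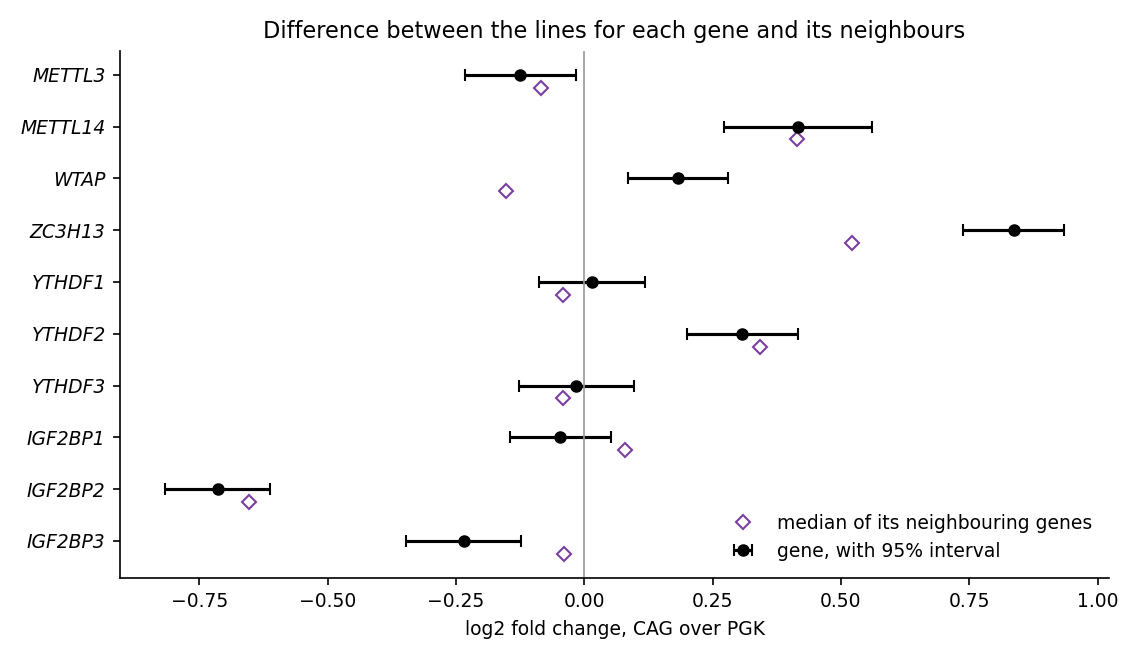
Difference between the lines for each gene as a log2 fold change, CAG over PGK, with its 95% interval (black), beside the median log2 fold change of up to 25 tested genes on each side of it on the chromosome (open diamonds). For METTL14, YTHDF2 and IGF2BP2 the diamond lies inside the gene's interval and away from 0, while WTAP lies on the other side of 0 from its neighbours.

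The YTHDF readers share a YTH domain and bind much the same mRNAs. YTHDF2 (ENSG00000198492, chromosome 1), which recruits the CCR4-NOT deadenylase to marked mRNAs, was the one of the 3 that rose. Its level was 128, 143 and 137 CPM in PGK and 173, 169 and 163 CPM in CAG, with no overlap. The log2 fold change was 0.31 (SE 0.05), with an adjusted p of 3.98e-05 in edgeR's test. YTHDF1 (ENSG00000149658, chromosome 20), known mostly for promoting translation, ranged from 81.9 to 83.7 CPM in PGK and from 82.8 to 86.2 CPM in CAG. Its interval allows a fold between 0.941 and 1.09, CAG over PGK. YTHDF3 (ENSG00000185728, chromosome 8), which works with both relatives, ranged from 95.4 to 102 CPM in PGK and from 93.8 to 103 CPM in CAG, and its interval allows a fold between 0.915 and 1.07. For both genes the libraries of the lines overlapped, and the adjusted p was 0.804 and 0.816 in edgeR's test.

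Together the 3 YTHDF genes summed to 317 ± 10.8 CPM in PGK, against 349.6 ± 8.39 CPM in CAG (SD, n = 3). Levels of different genes were compared per length, as CPM per kilobase of annotated exon. On that scale YTHDF2 made up 46.2 ± 1.35% of the family in PGK and 51.4 ± 0.452% in CAG. YTHDF1 made up 33.0 ± 1.12% and 30.0 ± 0.606%, and YTHDF3 20.9 ± 0.418% and 18.6 ± 0.870%. The shares of a family sum to the whole, so a rise in one lowers the others.

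Among the IGF2BP readers, IGF2BP2 (ENSG00000073792, chromosome 3), the family member that also stays expressed in many adult tissues, fell. Its level was 142, 151 and 148 CPM in PGK and 88.6, 92.3 and 88.4 CPM in CAG. The lowest PGK library was well above the highest CAG library. The log2 fold change was -0.71 (SE 0.05), with an adjusted p of 4.85e-10 in edgeR's test, and 15.4% of tested genes changed by more in either direction. It too kept its call against a fold of 1.5, with an adjusted p of 0.0173 in edgeR. The antisense gene IGF2BP2-AS1 lies inside its introns and had 1 count over all 6 libraries.

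IGF2BP3 (ENSG00000136231, chromosome 7), a fetal protein often found in tumours, fell by less. It was measured at 83.9, 92.4 and 86.4 CPM in PGK and at 73.5, 76.9 and 72.9 CPM in CAG, without overlap. The log2 fold change was -0.23 (SE 0.05), with an adjusted p of 8.63e-04 in edgeR's test. IGF2BP3 shares 17.9% of its exon bases with MALSU1 on the other strand. MALSU1, at 30.8 CPM in PGK and 26.1 in CAG, differed by -0.24 (SE 0.08) on the log2 scale, close to IGF2BP3, so the value of IGF2BP3 is uncertain.

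IGF2BP1 (ENSG00000159217, chromosome 17), the zipcode-binding protein first known from the transport of beta-actin mRNA, had the highest CPM of the 10 genes. It stood at 399.9, 434 and 401 CPM in PGK and at 395, 402 and 399 CPM in CAG. PGK replicate 2 was the highest library and the others lay together, so the lines overlapped. The interval of its fold ran from 0.905 to 1.04, CAG over PGK, with an adjusted p of 0.401 in edgeR's test. Per length, IGF2BP1 made up 52.2 ± 0.628% of the family in PGK and 61.2 ± 0.462% in CAG (SD, n = 3), IGF2BP2 35.9 ± 0.675% and 26.5 ± 0.271%, and IGF2BP3 11.9 ± 0.123% and 12.2 ± 0.192%. With the longest transcript as the length, the share of IGF2BP3 was 18.7 ± 0.187% in PGK and 19.4 ± 0.271% in CAG, and that of IGF2BP1 45.1 ± 0.575% and 53.5 ± 0.498%. The summed level of the family was 647 ± 27.5 CPM in PGK and 563 ± 7.50 CPM in CAG.

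The IGF2BP genes also share a feature of their own 3'UTRs that played no part in choosing them. All 3 hold the 7 bases CTACCTC, the match to the seed of the let-7 microRNAs, a family that restrains fetal genes and is itself blocked by LIN28. The microRNA is shown first with its seed (bases 2 to 8) in capitals, and below it the first match in each 3'UTR in capitals with the bases around it, which lets the shared bases be compared.
hsa-let-7a-5p: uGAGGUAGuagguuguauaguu
IGF2BP1: tgtgtgcgaagtaaaCTACCTCaagg
IGF2BP2: aacacacagaagaagCTACCTCaggt
IGF2BP3: tgcatttttactcaaCTACCTCaggt
The microRNA comes from RefSeq on GRCh38.p14 and the 3'UTRs are the longest of each gene in GENCODE 29, read on the mRNA strand, 5′ to 3′. IGF2BP1 held 4 matches in 6206 bases, and 0.475% of the 842 other 3'UTRs of like length (0.8 to 1.2 times as long) held as many. IGF2BP2 held 1 match in 1792 bases and IGF2BP3 1 in 2153, where 10.9% and 12.4% of 3'UTRs of like length held any. Of the other 7 genes METTL14 held 1 match, in a 3'UTR of 5131 bases, where 24.4% of 3'UTRs of like length held any. The remaining 6 held none anywhere in the 3'UTR searched. A match is a description of letters, and microRNAs were not measured in these libraries. Whether these matches bear on the levels of the 3 genes in either line was not tested.

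Per length, the order of the genes changed between the lines. In PGK the level fell from IGF2BP1 at 45.2 ± 2.15 CPM per kilobase through YTHDF2 at 35.3 ± 2.06, IGF2BP2 at 31.1 ± 0.940 and YTHDF1 at 25.2 ± 0.316 (SD, n = 3). WTAP at 17.7 ± 0.306 and METTL3 at 17.2 ± 0.493 came next with overlapping libraries. YTHDF3 at 15.9 ± 0.600, ZC3H13 at 11.9 ± 0.377, IGF2BP3 at 10.3 ± 0.515 and METTL14 at 4.29 ± 0.319 CPM per kilobase followed, each apart from the one before. In CAG, IGF2BP1 at 43.8 ± 0.397 and YTHDF2 at 43.7 ± 1.31 overlapped at the top, and ZC3H13 moved from the eighth place to the fourth, at 21.2 ± 0.521. IGF2BP2 moved from the third to the sixth, at 19.0 ± 0.461. METTL3 at 15.8 ± 0.743 and YTHDF3 at 15.8 ± 0.816 overlapped, and METTL14 was last again at 5.73 ± 0.339. Among all tested genes with a length, and over all 6 libraries, the level per length lay between the 45.9th percentile for METTL14 and the 92.3rd for IGF2BP1. With the longest transcript as the length, METTL3 took the third place in both lines, at 40.3 ± 1.15 CPM per kilobase in PGK and 37.0 ± 1.74 in CAG, and YTHDF2 at 57.6 ± 1.72 came before IGF2BP1 at 48.2 ± 0.437 in CAG. IGF2BP3 then took the seventh place in PGK, so the order depends on the gene model, while METTL14 was last with either length.

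Ratios of counts within a library do not depend on how libraries are scaled, and they test directly whether 2 genes changed by different amounts. Of 10 pairs compared, 9 had log2 ratios that did not overlap between the lines. The pairs share members, and the share among pairs of other genes was not computed, so this count is a description only. Of single tested genes 65.5% did not overlap. With 3 libraries against 3, the smallest two-sided p an exact permutation test allows is 0.1, which those 9 pairs reached, or 0.111 adjusted over the 10 pairs. None can therefore pass 0.05 in this design. The log2 ratio of METTL14 to METTL3 was -1.84, -1.64 and -1.88 in PGK and -1.41, -1.10 and -1.23 in CAG, a difference of 0.54. That of ZC3H13 to METTL3 went from a mean of 0.26 to 1.23, the widest shift of the 10 pairs at 0.96, and that of ZC3H13 to WTAP from 0.10 to 0.76. WTAP to METTL3 shifted by 0.31. METTL14, WTAP and ZC3H13 were thus each higher relative to METTL3 in every CAG library than in any PGK library.

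Among the readers, the log2 ratio of YTHDF2 to YTHDF1 was 0.61, 0.78 and 0.75 in PGK and 1.01, 1.03 and 0.98 in CAG. YTHDF3 to YTHDF2 shifted by -0.33. YTHDF3 to YTHDF1, the pair that overlapped, shifted by -0.03 (exact permutation p = 0.6, 3 libraries against 3). The log2 ratio of IGF2BP2 to IGF2BP1 was -1.49, -1.52 and -1.43 in PGK and -2.16, -2.12 and -2.17 in CAG, a shift of -0.67. IGF2BP3 to IGF2BP1 shifted by -0.19, and IGF2BP3 to IGF2BP2 by 0.48. YTHDF2 thus moved against YTHDF1 and YTHDF3, and IGF2BP2 and IGF2BP3 each moved against IGF2BP1, whose level overlapped between the lines.

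**Figure D3:**
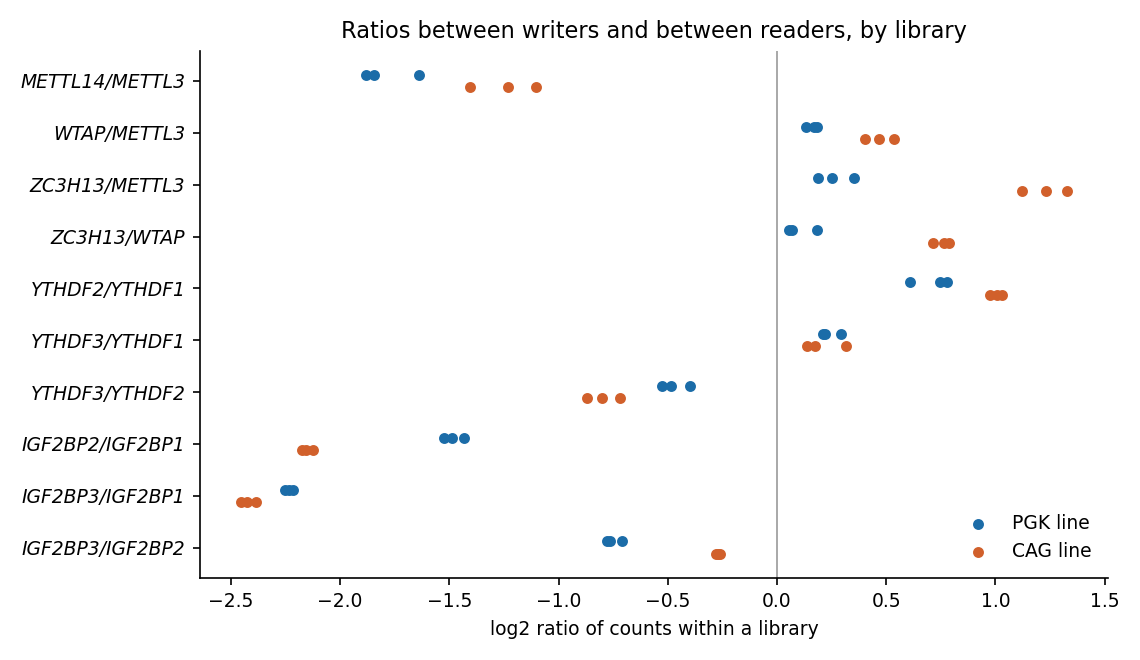
Log2 ratio of the counts of 2 genes within each library (x axis) for the 10 pairs compared (y axis), with blue points for PGK and orange points for CAG libraries. The colours separate for 9 pairs and overlap for YTHDF3 to YTHDF1.

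Several of these genes lie among neighbours that differed between the lines in the same direction. The tested genes on each side of a member, up to 25 a side, gave a median log2 fold change for its surroundings. Around ZC3H13 the median was 0.52, with 43 of 50 neighbours higher and 1 lower. ZC3H13 itself lay 0.31 above that median and was above 40 of the 50. Over the whole of chromosome 13 the median of 230 tested genes was 0.51, with 175 higher and 21 lower. Around IGF2BP2 the median was -0.65, with 43 of 50 lower and 2 higher, and IGF2BP2 lay 0.06 under it. The stretch of chromosome 3 from PARL to LMLN that holds it had 68 of 78 tested genes lower.

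Like IGF2BP2, METTL14 and YTHDF2 were close to their surroundings. The median around METTL14 was 0.41, with 40 of 50 neighbours higher, against its own 0.42. Around YTHDF2 it was 0.34, with 35 of 50 higher, against its own 0.31. YTHDF2 lies past the distal part of chromosome 1, from SAMD11 to SMPDL3B, where 212 of 250 tested genes were lower with a median of -0.59. On that side, 5 of the 6 genes furthest from YTHDF2 in its window had a log2 fold change below 0. How much of these 4 differences goes with the chromosome region was not tested.

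WTAP and IGF2BP3, like ZC3H13, stood further from their neighbours. The median around WTAP was -0.15, with 24 of 50 lower and 8 higher, and WTAP lay 0.34 above it on the log2 scale. IGF2BP3 lay 0.20 below a median of -0.04, or 0.08 below one of -0.16 with 10 genes on each side in place of 25. METTL3 lay 0.04 below a median of -0.08 over 43 neighbours, since the chromosome end leaves fewer on one side. The medians around YTHDF1 and YTHDF3 were both -0.04, and that around IGF2BP1 was 0.08.

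**Figure D4:**
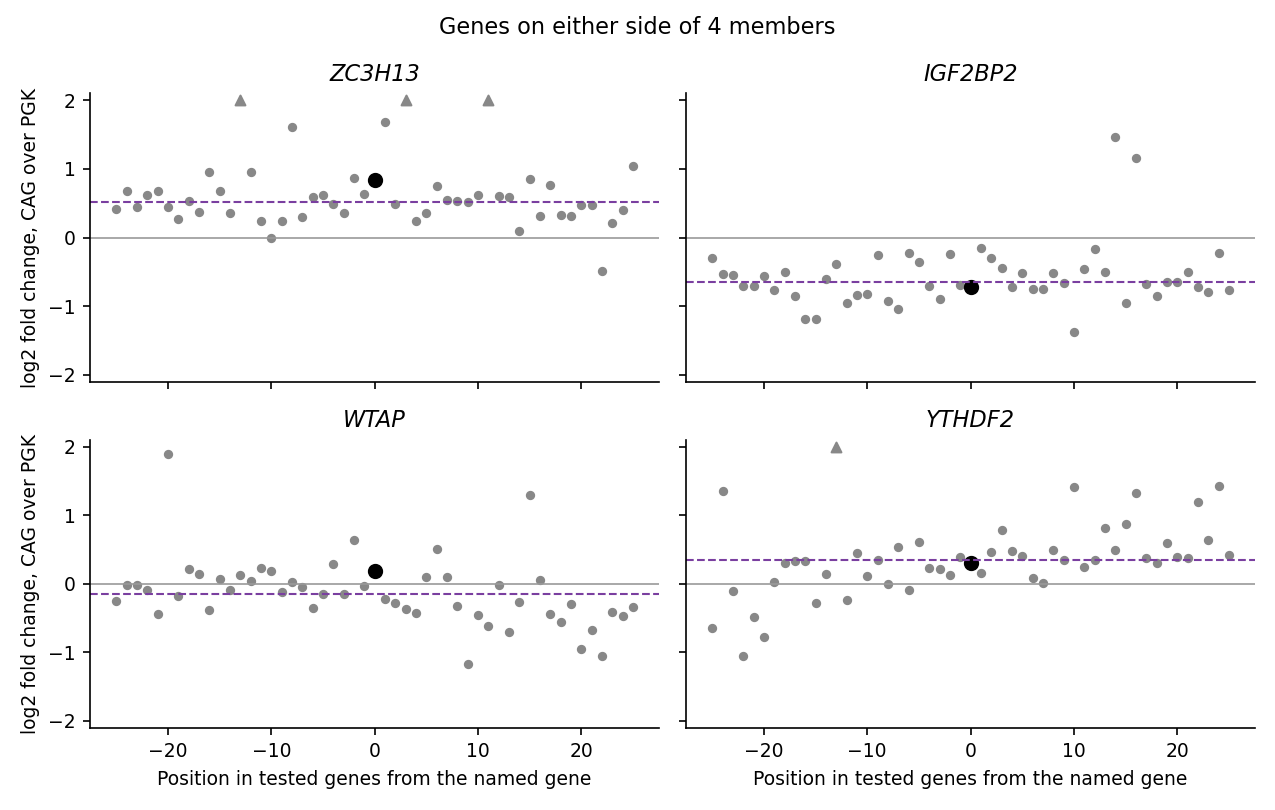
Log2 fold change, CAG over PGK (y axis), of the 25 tested genes on each side of 4 members, by place in gene order (x axis). Black points are the members, grey points their neighbours, triangles neighbours beyond 2 on this axis (3 for ZC3H13, 1 for YTHDF2), and dashed lines the neighbours' median. Nearly all neighbours of ZC3H13 lie above 0 and nearly all of IGF2BP2 below, while 5 of the 6 genes furthest left of YTHDF2 fall below 0.

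Other genes of the pathway were described from 9 lists with 40 genes, of which 39 matched a row and were tested. Of these 7 rose and 14 fell, with a median log2 fold change of -0.05, beside 31.6% and 30.4% of all tested genes. In all 53.8% of the 39 were called, against 62.0% of all tested genes. The counts by list below are descriptions, with those shares of all tested genes as their background. Against a fold of 1.5, 1 of the 39 passed, the adhesion receptor CD44, which was near 0 in PGK. Of the other subunits of the writer complex, VIRMA, the large scaffold that guides methylation toward 3'UTRs, was lower at 96.2 ± 3.69 CPM in CAG against 109 ± 2.31 in PGK (SD, n = 3), and RBM15, which brings the complex to target RNAs, changed by -0.17 (SE 0.05). CBLL1, a ubiquitin ligase homologue in the complex, did not pass, at 0.02 (SE 0.06) on the log2 scale. RBM15B was not analysed here. Their adjusted p was 0.00370 for VIRMA, 0.0100 for RBM15 and 0.829 for CBLL1 in edgeR's test.

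The demethylases did not pass. FTO was at 56.4 ± 2.72 CPM in PGK and 59.7 ± 2.54 in CAG, and ALKBH5 at 129 ± 2.14 and 125 ± 4.05 (SD, n = 3). The intervals of their log2 fold changes ran from -0.04 to 0.20 for FTO and from -0.15 to 0.05 for ALKBH5. Of the 6 other methyltransferases and their cofactors, 1 rose and 2 fell. METTL16, which methylates U6 snRNA and the MAT2A mRNA, rose by 0.20 (SE 0.05), and METTL4 changed by -0.32 (SE 0.10) and METTL5, the methyltransferase of ribosomal RNA, by -0.23 (SE 0.06). In edgeR, leaving out CAG replicate 1 or 2 ended the METTL4 call, at an adjusted p of 0.0761 and 0.0660. METTL5 shares 20.0% of its exon bases with SSB on the other strand, so the value of METTL5 is uncertain. MAT2A, the synthetase of the methyl donor, was at 411 ± 10.2 CPM in PGK and 410.3 ± 4.18 in CAG. Its regulatory subunit MAT2B fell by 0.43 (SE 0.06), and AHCY, which clears the spent donor, fell by 0.24 (SE 0.05). The median of the neighbours was -0.43 for MAT2B and -0.005 for AHCY. Both AHCYL1 and MAT2A did not pass.

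YTHDC1, the nuclear reader, was the other YTH protein that rose, from 118 ± 5.20 CPM in PGK to 149 ± 3.56 in CAG, a log2 fold change of 0.34 (SE 0.05) with an adjusted p of 8.89e-06 in edgeR's test. The median of its neighbours was 0.47. YTHDC2, a helicase best known from meiosis, had a log2 fold change of -0.05 (SE 0.06). Of 6 other proteins linked to reading the mark 2 rose and none fell. RBMX rose by 0.24 (SE 0.05) and FMR1, the fragile X protein, by 0.13 (SE 0.05). The medians of their neighbours were 0.13 for RBMX and 0.15 for FMR1. In edgeR the adjusted p of FMR1 was 0.109 without PGK replicate 3, 0.110 without CAG replicate 2 and 0.0888 without CAG replicate 3, which ended its call.

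Of 5 proteins that act with YTHDF2 in decay, 1 rose and 3 fell. POP1, a subunit of RNase P and MRP, rose by 0.43 (SE 0.05), while RPP25 of the same enzymes fell by 0.36 (SE 0.06). RIDA, which bridges YTHDF2 to those enzymes, changed by -0.25 (SE 0.07) and the helicase UPF1 by -0.32 (SE 0.05). The medians of the neighbours were -0.01 for POP1 and for RIDA, 0.33 for RPP25 and -0.56 for UPF1. RPP25 shares 8.07% of its exon bases with SCAMP5 on the other strand, and how the shared reads divide was not tested. CNOT1, the scaffold of the deadenylase that YTHDF2 recruits, had 380.0 ± 31.0 CPM in PGK and 398 ± 34.7 in CAG and did not pass. Of 4 IGF2BP cofactors 2 fell: LARP1 by 0.42 (SE 0.05), where the median of its neighbours was -0.44, and the polyA-binding protein PABPC1 by 0.24 (SE 0.05).

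Of 7 mRNAs known as IGF2BP clients, 2 rose and 3 fell. MYC, whose coding region IGF2BP1 shields, fell from 110.0 ± 1.75 CPM to 79.7 ± 1.81 (SD, n = 3), or by -0.46 (SE 0.05) on the log2 scale, with an adjusted p of 1.42e-07 in edgeR's test. The median of its neighbours was also -0.46. LIN28B, the let-7 antagonist, changed by -0.29 (SE 0.06). The beta-actin gene ACTB rose by 0.11 (SE 0.05). Its call ended without PGK replicate 1 or 2 or CAG replicate 1 or 3, at an adjusted p of 0.0504 to 0.158 in edgeR. The ACTB call also ended in edgeR with no low-count filter (adjusted p 0.0555) and with RLE scaling (0.0566). HMGA2, a let-7 target, had 125 ± 5.97 CPM in PGK and 135 ± 3.90 in CAG, with an adjusted p of 0.0585 in edgeR's test. It was called in edgeR with the stricter filter (adjusted p 0.0467), with scaling by library size only (0.0164) and without PGK replicate 2 (0.0227). A fit with a block for replicate number also called it (adjusted p 0.00850 in edgeR). CD44 was close to absent, with 4 counts over the PGK libraries and 48 over the CAG libraries, and IGF2 itself was low, with 196 counts over all 6 libraries.

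**Figure D5:**
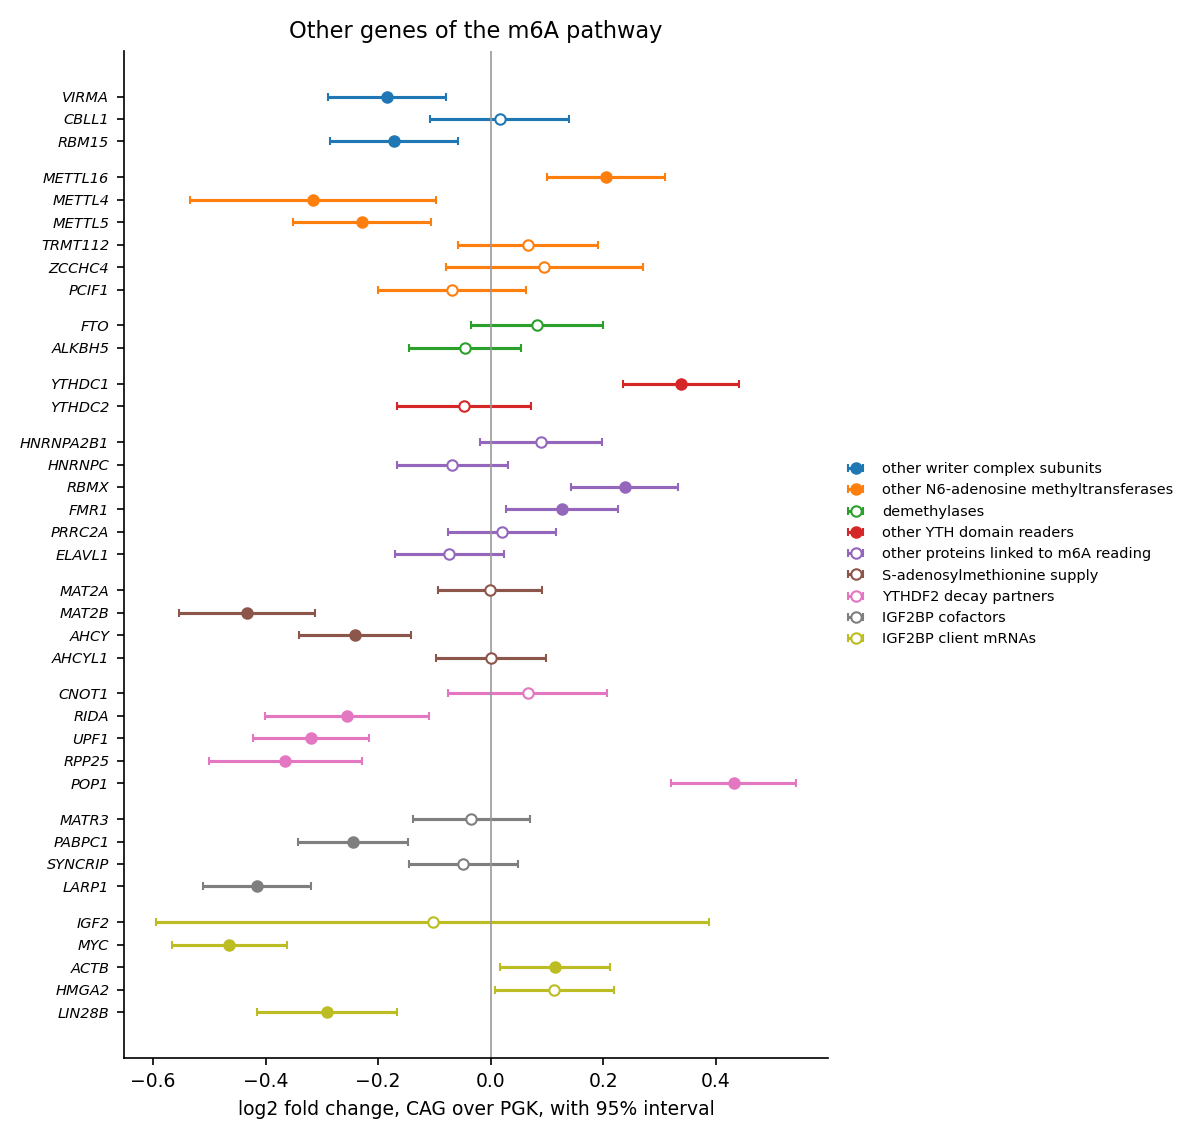
Log2 fold change, CAG over PGK, with 95% intervals for 37 tested genes of the 9 other m6A lists, coloured by list. Filled points were called and open points were not; CD44, with 4 counts in PGK, and a gene not reported by name here are left out. All called points shown lie between -0.5 and 0.5, with POP1 and YTHDC1 furthest to the right and MYC furthest to the left.

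The genes whose pattern over the 6 libraries was most like that of ZC3H13, by Euclidean distance between centred log2 CPM, were AFF1, ANTXR1 and SWAP70, at distances of 0.03, 0.06 and 0.07. For IGF2BP2 they were PINK1, THBS3 and ZNF736, at 0.05, 0.06 and 0.06. None of the 6 was among the 50 neighbours of its match, and all lie on other chromosomes. With 2 lines, such likeness mostly reflects a fold change of the same size, which was 0.83 for AFF1 and -0.71 for PINK1 on the log2 scale.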

How the data were processed

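RNA-seq of polyA RNA from 6 libraries was used. The authors deposited whole-number read counts per Ensembl gene, not normalized; the genome was hg19 and the tools were featureCounts 2.0.3, HISAT2 2.2.1, Bowtie2 2.5.1 and cutadapt 4.6, per the submitters' processing notes, while no source used here names the annotation release or strand setting. Of 20169 rows 19346 were paired with a GENCODE 29 symbol; that release is built on GRCh38, so no coordinates are given, and it supplied names, gene order, exon overlaps and lengths. Columns left unmapped numbered 0. Genes were filtered with filterByExpr, scaled by TMM and tested with edgeR 4.0.16 (R 4.3.3, robust quasi-likelihood fit, two-sided) over 13103 genes; the test was tried on simulated counts. CPM uses the TMM-scaled library size. Intervals are 95% intervals from the fit, and SE was taken as that change divided by the root of F. A level of 3 counts is 0.126 to 0.140 CPM. The labels do not say that replicate numbers pair the libraries, so the numbers were not treated as pairs in the main fit. Deviations of same-numbered libraries correlated by 0.108, 0.103 and 0.0131, and all 6 libraries correlated best with their own number. No libraries of a line agreed within sampling noise (chi-square per degree of freedom at least 3.41). Alternatives were other filters, RLE or library-size scaling, DESeq2 1.42.0, limma-voom (limma 3.58.1), leaving out each library, a replicate block and testing for a fold above 1.5. Members and lists were chosen with earlier results of these data known. Named genes were the 10 members, the called gene with the largest change in each direction of each list, both genes of a list of 2, and the 3 nearest profiles to the members with the largest rise and fall; others were chosen after their values were seen. A listed gene is counted but not reported by name here. Exact permutation tests used SciPy 1.17.1.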

Additional observations from a re-analysis of the deposited data

How the results depend on the processing

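The direction of the 10 members' called differences and of the other listed genes' called differences was the same under every alternative, with 0 reversals in 140 fits of members and 545 of other listed genes. When the test asked for a fold above 1.5, 1512 of all genes, 2 of the 10 members (ZC3H13 and IGF2BP2) and 1 of the 39 other genes were called. In the other alternatives 6 or 7 members were called, and METTL3 was the only one to lose its call. Leaving out 1 library at a time gave 7326 to 8030 called genes in all, 6 to 7 members and 18 to 22 other genes. With a replicate block, 8861 genes, 7 members and 23 other genes were called, against 8125, 7 and 21 without it, and 9 of the 10 ratios differed in the same direction in all 3 same-numbered pairs; the block changed no member's call, and HMGA2 was called with it (adjusted p 0.00850 in edgeR). All 6 libraries correlated best with the library of their own number, a hint from the data and not from the design. Ratio pairs without overlap numbered 9 to 10 when a library was left out. Other listed genes lost 34 and gained 8 calls over all alternatives. At these depths each member had at least 626 counts per library.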
